A study of Mus musculus with 3 samples.

Results

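The comparison described here is between inserts of 20 to 23 nt and inserts of 25 to 30 nt that were read side by side in 1 library of fully grown mouse oocytes. Its members are the reads of 1 of the 3 libraries of the series, the one cut from a gel at 19-30 nt. This library was chosen because its reads are 36 nt long and therefore run past the end of every insert in that window. Of its 943811 reads, 245639 (26.03%) held an insert of 20 to 23 nt and 105212 (11.1%) an insert of 25 to 30 nt, together 350851. Inserts of 24 nt lie between the groups and were left out of both.

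The oocytes came from females given 5 IU of PMSG, a gonadotropin that makes ovarian follicles grow, 48 hours before sacrifice. Total RNA was extracted with Trizol, a gel window was cut, adapters were ligated, and the RT-PCR product was sequenced on an Illumina 1G instrument. The strain, the age of the females and the number of oocytes are not given in the labels. Because both sizes come from the same window, tube and run, none of these differs between them, but there is 1 library and no difference below has a replicate check. Intervals are 95% intervals (Wilson for shares, Newcombe for differences of shares) and cover counting error only, since reads amplified by PCR without molecular identifiers are not independent molecules.

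Mouse oocytes make 3 families of small RNA. MicroRNAs are cut from hairpins by Drosha and Dicer. Endogenous siRNAs are cut by Dicer from long double-stranded RNA, which forms where a transcript meets an antisense transcript, folds back on itself or pairs with a pseudogene, and the 2 strands of an siRNA therefore overlap over nearly their whole length. piRNAs are longer, do not need Dicer, bind PIWI proteins and mostly match transposons. Many piRNAs begin with U, and in the amplification loop known as ping-pong a PIWI protein cuts a target opposite base 10 of its guide, so that the new piRNA overlaps the guide by 10 nt and has A at base 10.

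The mature microRNAs below led the hairpins in one size group or the other. They are RefSeq sequences (GRCm38.p6), with the seed, bases 2 to 8, in capitals. None of the 6 seeds is shared with another.
miR-20a-5p: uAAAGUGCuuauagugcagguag
miR-22-3p: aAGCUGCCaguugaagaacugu
let-7g-5p: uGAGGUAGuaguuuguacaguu
miR-16-5p: uAGCAGCAcguaaauauuggcg
miR-182-5p: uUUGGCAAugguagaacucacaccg
miR-30e-5p: uGUAAACAuccuugacuggaag

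Outside small RNA genes, the reads below were the 4 most frequent 25-30 nt inserts that matched a transcript in full at 10 places or fewer. They are printed as sequenced, with T for U, and bases 1 and 10 are in capitals. The position given is 1 of the places that each read matches in the transcripts of GENCODE M21 (GRCm38).
Ppp2r5a antisense, 26 nt, 85 reads, 3 places, chr1:191387369-191387394, plus strand: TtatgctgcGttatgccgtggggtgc
Gm29084 sense, 27 nt, 37 reads, 7 places, chr1:62534714-62534740, minus strand: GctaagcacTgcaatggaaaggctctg
D10Wsu102e antisense, 26 nt, 37 reads, 4 places, chr10:83468809-83468834, minus strand: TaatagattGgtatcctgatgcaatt
Gm38194 sense, 30 nt, 18 reads, 6 places, chr1:195321930-195321959, plus strand: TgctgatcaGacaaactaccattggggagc
In these, 3 of 4 begin with T and none has A at base 10. Reads with the same first 20 nt as the Ppp2r5a insert numbered 129 at 25-30 nt and 1 at 20-23 nt, and for the D10Wsu102e insert 154 and 7.

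A second set shows the leading 25-30 nt insert of each of the 5 genes whose reads leaned most to that size, with the same bases in capitals. These genes were chosen by size and not by base.
Gm47700 antisense, 25 nt, chr10:32484660-32484684, plus strand: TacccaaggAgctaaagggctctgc
Vmn2r117 antisense, 27 nt, chr17:23456262-23456288, plus strand: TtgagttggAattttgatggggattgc
Cdk14 sense, 27 nt, chr5:5092275-5092301, minus strand: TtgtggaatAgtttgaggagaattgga
Gm47056 antisense, 28 nt, chr12:44124508-44124535, minus strand: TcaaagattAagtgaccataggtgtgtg
Gm44578 antisense, 29 nt, chr7:85501639-85501667, minus strand: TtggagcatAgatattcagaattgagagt
All 5 begin with T and have A at base 10, but these inserts had only 2, 29, 3, 15 and 55 reads in the order printed. They match 1, 67, 5, 2 and 42 places in the order printed, so that all but the first are sequences present in several transcripts.

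The leading 20-23 nt inserts of 3 of the 5 genes that leaned most to the short size are shown for comparison, with 1 place for the first and 2 for each of the others.
Hdx antisense, 22 nt, 28 reads, chrX:111574479-111574500, plus strand: TttagtccaGtgtcttttttac
Gm6083 sense, 21 nt, 6 reads, chr5:29538436-29538456, plus strand: TgcgccagcAaaaaggagtgc
Ptgs2os2 sense, 22 nt, 39 reads, chr1:150159794-150159815, minus strand: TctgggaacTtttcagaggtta
Reads with the same first 20 nt as these 3 numbered 51, 9 and 82 at 20-23 nt and 0 at 25-30 nt.

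The first question was how much of each size came from annotated mouse transcripts. A read counted as matched when its first 20 nt were found, without a mismatch, in a GENCODE M21 transcript on either strand. Of the 20-23 nt inserts 47.4% matched (47.2 to 47.6), and of the 25-30 nt inserts 17.01% (16.8 to 17.2), which gave 116513 and 17892 matched reads. The gap was not even along the long group. Only 4.57% of the 60870 inserts of 28 nt matched (4.40 to 4.73), against 44.1% of the 7117 inserts of 29 nt (43.0 to 45.3), so the lengths on either side of 28 nt were far richer in annotated mouse sequence. Unmatched inserts were not analysed here.

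MicroRNAs were mainly a 20-23 nt class. They made up 19.27% of matched 20-23 nt reads and 4.36% of matched 25-30 nt reads (4.07 to 4.67), a difference of 14.9 percentage points (14.5 to 15.3). When each distinct sequence was counted once, the shares were 3.31% and 3.38%, a difference of -0.078 points (-0.441 to 0.262). The plot of matched reads by length shows the same. MicroRNA reads peaked at 22 nt (11036) and 23 nt (8311) and fell to 609 at 25 nt and 32 at 30 nt. Reads at exons of coding genes, long non-coding genes and pseudogenes, called exon reads below, also peaked at 22 nt with 38812. They then levelled off instead of vanishing, with 3210 at 25 nt, 2253 at 27 nt, a small second rise to 2891 at 29 nt, and 1937 at 30 nt.

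**Figure D1:**
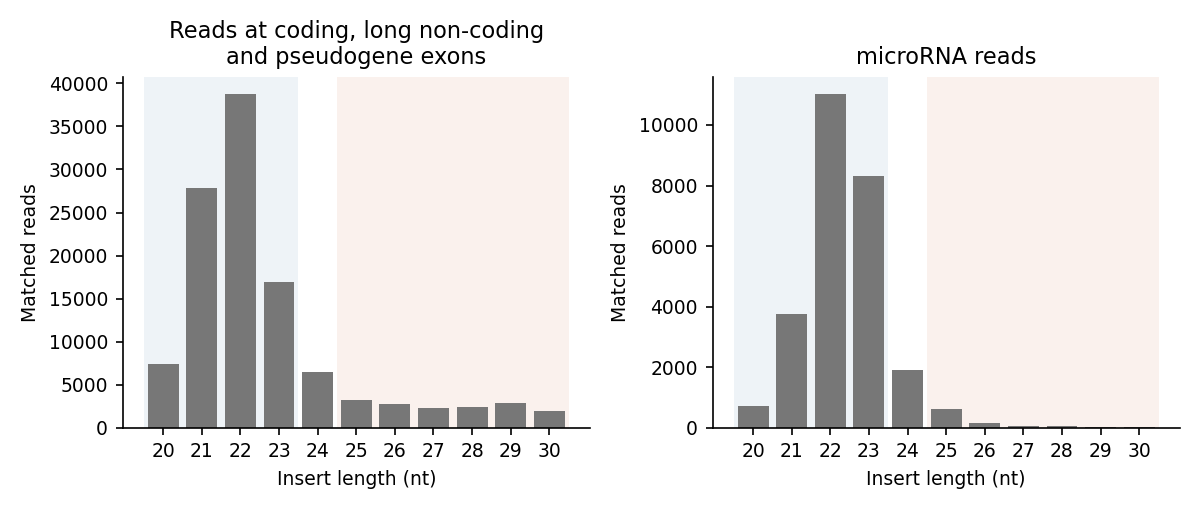
Matched reads (vertical axis) by insert length in nt (horizontal axis) for exon reads at coding, long non-coding and pseudogene exons (left) and for microRNA reads (right); the blue and orange backgrounds mark the 20-23 and 25-30 nt groups. Both peak at 22 nt, while only the exon reads keep a plateau of about 1937 to 3210 reads per length from 25 to 30 nt.

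Structural RNAs, read here as pieces of longer RNAs, took larger shares of the long group. The tRNA class made up 3.14% of 25-30 nt (2.90 to 3.41) and 0.379% of 20-23 nt matched reads (0.345 to 0.416). It includes 188 short and 15 long reads that matched the mitochondrial rRNA gene mt-Rnr2, beside 441.6 short and 562 long reads in all. Those mt-Rnr2 reads are not in the rRNA shares below, so the short tRNA share is partly rRNA sequence. A single source, a tRNA-like locus antisense to Yipf1 that was put in this class after the reads had been seen, gave 366 long reads and 5.09 short ones. Of all tRNA reads, 303 (28.0%) were 30 nt long, at the upper edge of the window. Fragments of snRNA and snoRNA, the guides of splicing and of rRNA modification, made up 2.50% (2.28 to 2.74) and 0.242% (0.216 to 0.272). Among them Snord118, the U8 RNA of rRNA maturation, had 69 reads of 25-30 nt and 35 of 20-23 nt, and Snord2, which lies in an intron of the translation factor gene Eif4a2, had 63 and 0. rRNA fragments made up 1.42% (1.25 to 1.60) and 0.312% (0.282 to 0.346).

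Among exon reads, the strand differed little between the sizes when all matched reads were counted. Reads antisense to coding exons, at places where no sense transcript or small RNA gene lay, made up 16.79% of short (16.58 to 17.01) and 17.99% of long matched reads (17.43 to 18.56). This difference of -1.19 points (-1.80 to -0.597) turned to 1.65 points when only reads with a single place were kept, and to 1.31 points when each distinct sequence was counted once. Within coding exons, the antisense share was 44.5% at 20-23 nt and 47.5% at 25-30 nt, and with single-place reads 35.7% (35.0 to 36.5) and 29.4% (27.2 to 31.8), again the other way round. The direction differed between these ways of counting. Pseudogene antisense reads differed more, with 11.3% of long (10.8 to 11.7) and 6.10% of short reads (5.96 to 6.24). With single-place reads these shares were 6.63% and 4.72%.

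Long reads came more often from repeated sequence. Of the exon reads, 14.8% of the 25-30 nt group (14.2 to 15.3) and 24.0% of the 20-23 nt group (23.7 to 24.3) matched a single place in the transcripts, while 54.1% (53.3 to 54.9) and 40.2% (39.9 to 40.5) matched 11 to 1000 places. A single place here means a single place among annotated transcripts, since introns and intergenic sequence were not searched.

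The first base separated the sizes. Of the exon reads, 74.4% at 25-30 nt and 58.2% at 20-23 nt began with U, a difference of 16.2 points (15.4 to 16.9). By exact length the share rose from 55.2% at 20 nt (54.0 to 56.3) through 61.6% at 24 nt (60.4 to 62.8) and 66.4% at 25 nt (64.7 to 68.0) to 84.8% at 29 nt (83.5 to 86.1), with a lower value of 67.4% at 27 nt (65.4 to 69.3). At bases 2 to 20 the share of U lay between 19.3% and 35.5% in the long group and between 23.4% and 29.9% in the short one, below the share at base 1 in both groups. MicroRNAs gave no such order, with 70.3% U at 20-23 nt (69.7 to 70.9) and 67.6% at 25-30 nt (64.6 to 70.5).

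Base 10 separated the sizes by a wider margin. A stood there in 51.7% of the 25-30 nt exon reads and in 25.2% of the 20-23 nt exon reads, a difference of 26.5 points (25.7 to 27.3). The 8 bases from 11 to 18 held a mean of 25.95% A in the long group (21.3 to 32.8 by position) and 25.86% in the short group (21.8 to 28.8). At bases 2 to 20 other than base 10, A stood in 21.3% to 32.8% of the long and 19.3% to 28.85% of the short reads. Among these bases the long share was also higher at bases 2 to 7, 9, 13, 14 and 18 to 20, by less than at base 10. It was 32.43% against 26.4% at base 3, 32.76% against 26.12% at base 13 and 25.72% against 19.3% at base 20. At bases 8, 11, 12 and 15 to 17 it was lower than the short share. The plot of composition by length shows a steady climb. The share of A at base 10 was 28.1% at 24 nt (27.04 to 29.22), 30.9% at 25 nt (29.3 to 32.5), 43.0% at 26 nt (41.2 to 44.9), 54.9% at 27 nt (52.9 to 57.0), 61.4% at 28 nt (59.5 to 63.3) and 65.7% at 30 nt (63.6 to 67.8). From 20 to 23 nt it stayed between 23.8% and 26.1%.

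**Figure D2:**
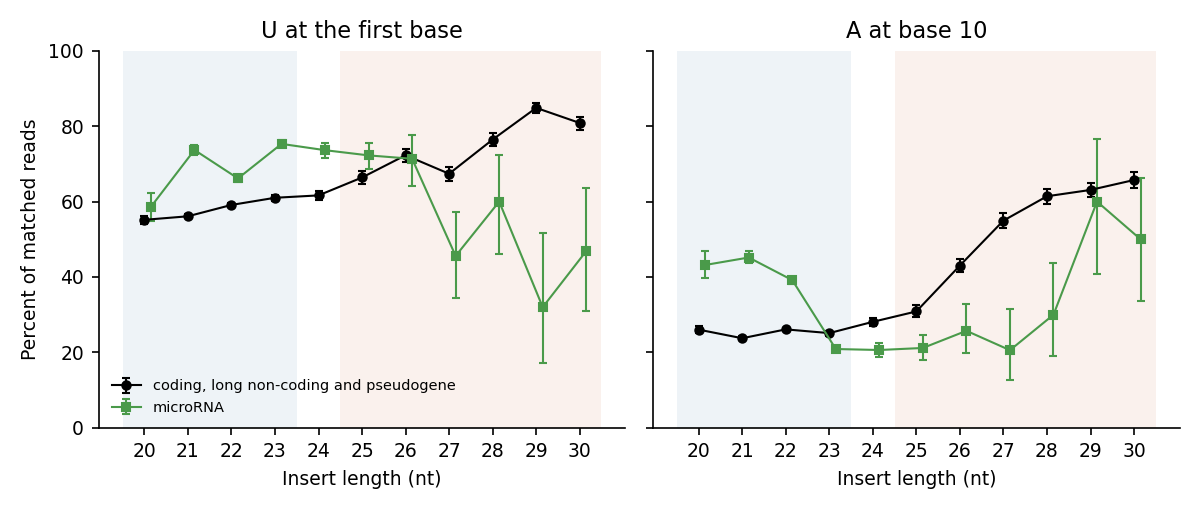
Percent of matched reads (vertical axis) with U at the first base (left) and with A at base 10 (right) by insert length in nt; black circles are exon reads, green squares microRNA reads, bars are 95% Wilson intervals for counting error. Among exon reads, A at base 10 stays near 25% up to 23 nt and reaches 65.7% at 30 nt, while the microRNA values at 27 to 30 nt rest on 25 to 68 reads per length.

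The base 10 difference was seen on both strands and in all 6 classes of exon read, each read being put once in the first class that any of its places held. For reads sense to coding exons the shares of A were 53.6% at 25-30 nt (52.7 to 54.5) and 26.1% at 20-23 nt (25.8 to 26.4). Among coding antisense reads they were 52.4% (48.6 to 56.2) and 23.7% (22.7 to 24.8), and among pseudogene antisense reads 54.3% (49.0 to 59.5) and 22.3% (20.8 to 24.0). The lowest long value was that of long non-coding sense reads, 39.1% (36.5 to 41.7) beside 20.3%. The share rose with the number of places. Long reads with a single place had A at base 10 in 43.1% (41.1 to 45.1), those with 2 to 10 places in 45.0% (43.6 to 46.4) and those with 11 to 1000 places in 57.9% (56.9 to 59.0), beside 22.5%, 24.2% and 27.7% of the short reads.

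U at base 1 and A at base 10 were then read together. Among long exon reads that began with U, 51.4% had A at base 10 (50.5 to 52.3), and among those that began with another base 52.6% (51.1 to 54.2). In the short group the shares were 24.9% and 25.6%.

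The 3' ends of the 25-30 nt group were of more than 1 kind. Each matched read was followed past base 20 and compared with its transcript, leaving out C where the transcript has A, a base call that fails often in this run (in linker-only reads, whose sequence is known, 22.6% of the A bases at cycle 12 and 19.54% at cycle 16 were called C). Of the 25 nt exon reads 27.2% matched to the last base (25.7 to 28.8), while 68.9% did so at 28 nt (67.1 to 70.8). Many differing ends consisted only of 1 or more A bases that the transcript does not have. These made up 61.35% of the differing exon reads at 24 nt, 50.13% at 25 nt, 30.02% at 26 nt and 10.67% at 28 nt. Of the 25 nt exon reads 36.5% ended in such A bases alone (34.8 to 38.1), most often 3 (459 reads) or 2 (357 reads), and of the 24 nt exon reads 46.2% (45.0 to 47.4). At 28 nt this share was 3.31% (2.67 to 4.10) and at 29 nt 2.21% (1.74 to 2.82).

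At base 23 the shorter inserts differed more often, but not at every base. Base 21 differed in 7.31% of 21 nt exon reads, 4.48% of 22 nt, 4.80% of 25 nt and 5.95% of 29 nt reads. Base 23, read in the same sequencing cycle whatever the insert length, differed from the transcript in 43.7% of 23 nt exon reads (42.9 to 44.4), 44.9% of 24 nt (43.7 to 46.1), 38.1% of 25 nt (36.4 to 39.8), 15.5% of 26 nt (14.2 to 16.9), 7.37% of 27 nt (6.36 to 8.52) and 4.46% of 29 nt reads (3.77 to 5.28). Where it differed, A had been read in 77.2% of 23 nt and in 17.1% of 29 nt reads. How the added A bases arose was not tested.

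**Figure D3:**
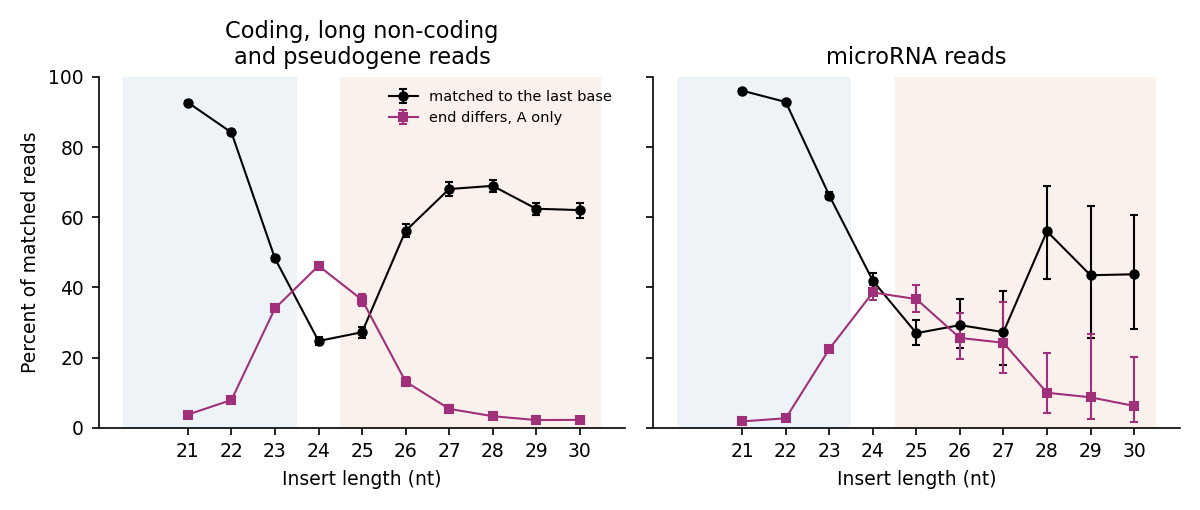
Percent of matched reads (vertical axis) by insert length in nt that matched their transcript to the last base (black circles) or that ended in A bases absent from the transcript (purple squares), for exon reads (left) and microRNA reads (right); bars are 95% Wilson intervals for counting error. In exon reads the black line falls to 24.7% at 24 nt and returns to 68.9% at 28 nt, and the purple line peaks at 46.2% at 24 nt.

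MicroRNA reads of 25-30 nt had such ends too. Of the 25-30 nt microRNA reads 29.9% matched to the last base (27.1 to 32.9) and 30.7% ended in added A alone (27.9 to 33.8), while at 20-23 nt the shares were 84.3% (83.8 to 84.7) and 9.40% (9.03 to 9.78). Mir20a gives an example of the same RNA in both size groups. Its leading 23 nt insert (831 reads) matches the hairpin throughout, and its leading 25-30 nt insert with a differing end (25 nt, 16 reads) matches for 22 nt and then carries 3 A bases, shown in capitals.
Mir20a, 23 nt: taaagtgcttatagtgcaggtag
Mir20a, 25 nt: taaagtgcttatagtgcaggtaAAA
Most long microRNA reads, 92.6% (90.7 to 94.1), began at a base where a 20-23 nt microRNA read also began, against 66.1% of long exon reads (65.3 to 66.8).

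The long exon reads were then divided by the part that matched before the first differing base. This part was 20 to 23 nt in 28.99% of them (28.28 to 29.71) and 25 to 30 nt in 65.4% (64.6 to 66.1). The first set can also hold reads with a lone difference that match again beyond it, which were not counted apart. At 29 nt, base 21 differed in 5.95% of exon reads, while 2.21% ended in added A alone. In the first set 37.3% had A at base 10 (35.9 to 38.7) and 67.1% began with U (65.7 to 68.4). The second set had 59.2% (58.2 to 60.1) and 77.6% (76.8 to 78.4). Long reads whose matched part was 20 to 23 nt thus had values between those of the short group (25.2% and 58.2%) and those of the long reads with a long matched part.

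Opposite-strand pairs of reads were compared next, because siRNA duplexes and ping-pong pairs overlap by different lengths. Among 25-30 nt exon reads with a single place, 34 pairs of 5' ends overlapped by 1 to 25 nt, and 6 of these (17.6%, 8.35 to 33.5) overlapped by exactly 10 nt, the most frequent value. The other overlaps had a median of 1 pair each. The 20-23 nt reads gave 3379 such pairs, of which 89 (2.63%, 2.15 to 3.23) overlapped by 10 nt. Their most frequent overlap was 20 nt with 174 pairs (5.15%, 4.45 to 5.95). This was no sharp peak, with 166 pairs at 18 nt, 166 at 19 nt and 163 at 21 nt, all within that interval. Of the 6 pairs, 4 lay in D10Wsu102e, 1 in Gm47611 and 1 in the vomeronasal receptor pseudogene Vmn2r-ps54, each with 1 to 5 reads a side.

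With reads of up to 10 places allowed, and each pair of sequences counted once however many copies it has, the 25-30 nt reads gave 511 pairs. Of these 90 overlapped by 10 nt (17.6%, 14.6 to 21.1), beside 23 by 9 nt and 22 by 11 nt. When all pairs of 5' ends were counted instead, copies included, the share was 15.2% with reads of up to 10 places (234 of 1537). With reads of up to 1000 places it was lower, 10.4% (8211 of 79109). The 20-23 nt reads of up to 10 places gave 20423 pairs of sequences, each counted once. Of these 738 were at 10 nt (3.61%, 3.37 to 3.88) and 839 at 20 nt (4.11%, 3.84 to 4.39), with between 733 and 929 at each overlap. Pairs of a short with a long read numbered 5612, and 294 (5.24%, 4.69 to 5.85) overlapped by 10 nt, beside 233 at 9 nt, 228 at 11 nt and 286 at 1 nt. With single-place reads 18 of 499 such pairs (3.61%, 2.29 to 5.63) overlapped by 10 nt, beside 14 at 9 nt and 20 at 11 nt, and the most frequent overlap was 20 nt with 28.

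**Figure D4:**
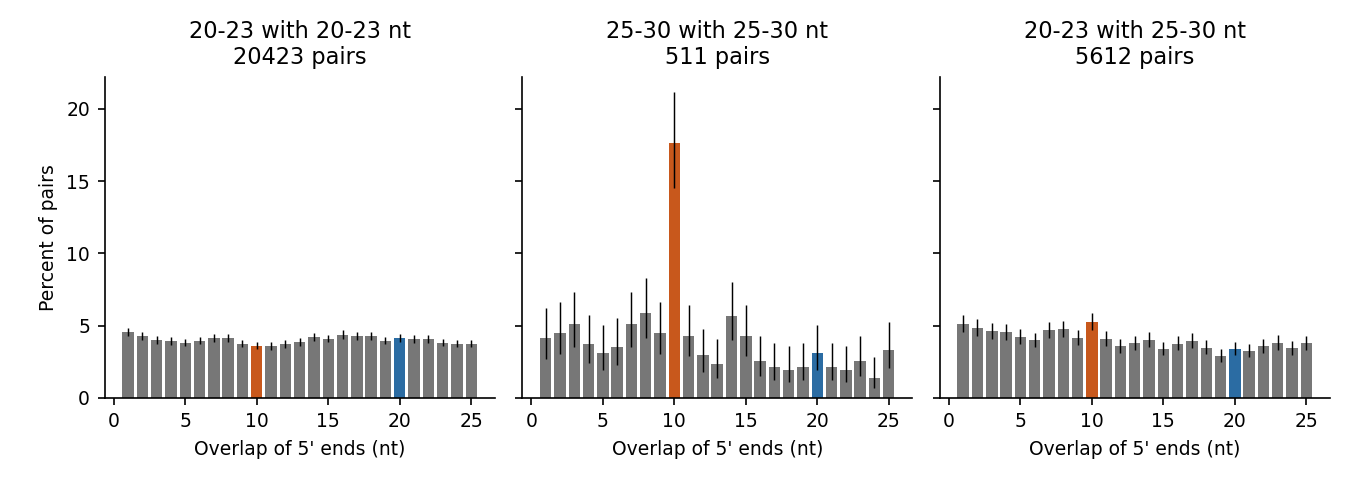
Percent of opposite-strand pairs (vertical axis) by the overlap of their 5' ends in nt (horizontal axis) for reads with up to 10 places, each pair of sequences counted once; bars in orange and blue mark 10 and 20 nt, and lines are 95% Wilson intervals for counting error. In 25-30 nt pairs 10 nt stands out with 17.6%, while 20-23 nt pairs lie between 3.59% and 4.55% at every overlap.

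The leading pairs of both kinds are printed with the overlapping bases in capitals. The first is from Optn, which encodes the autophagy receptor optineurin and is a known source of oocyte siRNAs, with 2 inserts that each match a single place.
Optn antisense, 22 nt, 10 reads, chr2:5021147-5021168, plus strand: TAAAAACACTGGCTGGCTTAtg
Optn sense, 21 nt, 5 reads, chr2:5021146-5021166, minus strand: TAAGCCAGCCAGTGTTTTTAt
The long pair lies in the olfactory receptor gene Olfr986, among other copies, with 8 places for the first insert and 4 for the second.
Olfr986 sense, 30 nt, 8 reads, chr9:40189682-40189711, plus strand: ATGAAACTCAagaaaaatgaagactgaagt
Olfr986 antisense, 29 nt, 4 reads, chr9:40189663-40189691, minus strand: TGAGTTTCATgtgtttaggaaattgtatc
In the Optn pair nearly the whole of both inserts is paired. In the Olfr986 pair only the first 10 bases are, and the T at base 1 of the antisense insert faces the A at base 10 of the sense insert. Another leading long pair, in Rab3gap1 and not printed, had 3 sense and 37 antisense reads and also overlapped by 10 nt. Neither of its inserts begins with T or has A at base 10.

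Genes were then compared by their reads of both sizes, sense and antisense summed, with a read of several places divided equally among them. Over all exon reads there were 5.87 short reads for each long one. Of 888 genes with at least 20 reads, 32 had a ratio of long to short reads at least 4 times the overall one and are called skewed to 25-30 nt, 3.6% of those tested. Another 122, or 13.7%, had a ratio at least 4 times lower and are called skewed to 20-23 nt. These are counts past a fold, with no test, and they moved with the way of counting. With each distinct sequence counted once, 4 of 604 genes were skewed long and 76 short, and with single-place reads 14 and 60 of 223. With no linker mismatch allowed they were 8 and 53 of 317. The short count rose to 186 of 699 with the whole insert matched and to 244 of 914 with size taken from the matched part. The median gene lay at -0.12 on the log2 scale of its ratio over the overall one, the lower and upper quartiles at -1.22 and 1.05. Just inside the threshold of 2 lay Gm49701 (2.019) and just outside it A430073D23Rik (1.996), and on the short side Khdc1a (-2.03) and Kif4 (-1.99). Across the 888 genes the log2 reads of the 2 sizes had a Pearson r of 0.55 and a Spearman rho of 0.47, a description only, since genes share reads, the library and its depth.

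**Figure D5:**
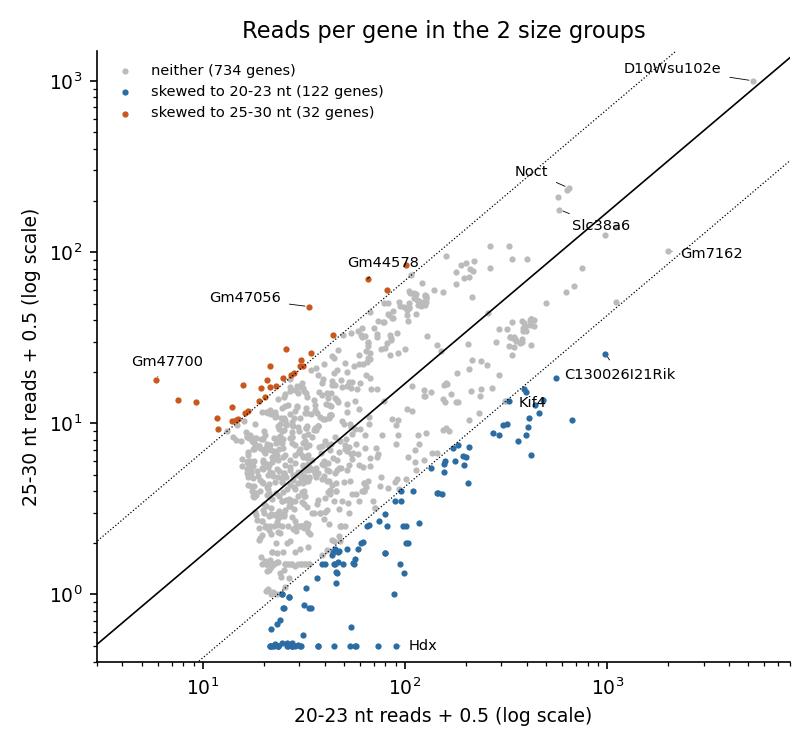
Reads per gene of 25-30 nt (vertical axis) against 20-23 nt (horizontal axis), each with 0.5 added, on log scales, for 888 genes; the solid line is the ratio of all exon reads and the dotted lines lie 4 times above and below it. The 32 genes skewed to the long size (orange) have few reads, and D10Wsu102e, the gene with most reads, lies close to the solid line.

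The gene with most reads in both sizes, D10Wsu102e (chr10:83360221-83488505, plus strand, GRCm38), an uncharacterised coding gene, was skewed to neither. It had 2877 sense and 2390 antisense reads of 20-23 nt, and 538.9 sense and 461.5 antisense reads of 25-30 nt, nearly all (99.98%) at its annotated 3' UTR. Its long share of 15.96% (15.08 to 16.89) lay at 0.16 on the log2 scale, next to that of all exon reads. Both strands were thus read about equally at both sizes. Its bases differed by size as in all reads together: A at base 10 in 45.3% of long and 25.97% of short reads, and U at base 1 in 74.5% and 60.1%.

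The other leading sources of long reads rested mainly on reads with several places. Noct, which encodes the circadian phosphatase nocturnin, had 217 sense and 19 antisense long reads and 448.4 sense and 198.3 antisense short ones. In Gm42860 the 4 values were 209.5, 20.01, 431.3 and 200.7, and in the non-coding gene AC160336.1 they were 123.8, 85.1, 272.3 and 295.7. Slc38a6, of an amino acid transporter family, leaned the other way, with 16.3 sense and 160.3 antisense long reads and 198.4 sense and 380.1 antisense short reads. Single-place reads made up only 8.61% of the reads of Noct and 8.21% of those of Slc38a6. In Noct, Gm42860, Slc38a6 and Gm47652 the long reads were more one-sided than the short reads. Antisense reads made up 8.05% of the long and 30.7% of the short reads of Noct, and 90.8% and 65.7% of those of Slc38a6. In Gm42860 they made up 8.72% and 31.8%, and in Gm47652 93.8% and 66.6%.

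Over the 166 genes with at least 20 reads in each size, the strand that held most reads was the same in both sizes in 160. Their median antisense share was 56.2% at 25-30 nt and 55.7% at 20-23 nt, and the 2 shares had a Pearson r of 0.93 across genes, which share reads from repeats. The strand changed in AC160336.1, Olfr639, Olfr986, Olfr1247, Jakmip2 and Gm45090.

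The 5 genes most skewed to 25-30 nt had few reads, and in 4 of them most long reads were antisense. Gm47700 (chr10:32484490-32486999, minus strand) had 17.3 long and 5.34 short reads, a long share of 76.4% (55.9 to 89.2). In Vmn2r117, a vomeronasal pheromone receptor gene, the values were 13.1 and 7.03, in the cell cycle kinase gene Cdk14 12.8 and 8.74, in the pseudogene Gm47056 47.5 and 33.0, and in the pseudogene Gm44578 69.0 and 64.7. In Cdk14 the long reads were sense (12.7 of 12.8), and in the other 4 between 88.9% and 99.6% of long reads were antisense. The base 10 share was high in all 5: A stood there in 99.8% of the long reads of Gm47700, 69.3% for Vmn2r117, 97.2% for Cdk14, 87.9% for Gm47056 and 85.3% for Gm44578, beside 68.9%, 51.7%, 36.4%, 26.4% and 33.9% of their short reads. Of the 17.3 long reads of Gm47700, 17 shared the start of the insert printed above. In Cdk14, 62 long reads shared the start of its printed insert, which matches 5 places, and were divided among those places. The base 10 shares of Gm47700 and Cdk14 thus describe mainly a single start in each gene. Only Gm47700 rested mainly on single-place reads (88.5%), and the others had 4.63% to 39.7%. Of the 32 skewed genes 13 were pseudogenes, 10 long non-coding and 9 coding genes, of 142, 290 and 456 tested.

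The 5 genes most skewed to 20-23 nt had no long read. They were Hdx (89.5 short reads, so that a long share of up to 3.35% is allowed), a homeobox gene, the antisense gene Gm12735 (73), Ankrd28 (57.0), which encodes an ankyrin repeat protein, the pseudogene Gm6083 (55.8) and the long non-coding gene Ptgs2os2 (52.9). In the first 4 both strands were read, with 16.5 sense and 73 antisense reads in Hdx and 31.01 and 26 in Ankrd28, while Ptgs2os2 had sense reads only. Single-place reads made up 93.8% in Hdx, 100% in Gm12735, 99.97% in Ankrd28 and 53.8% in Gm6083, but 0% in Ptgs2os2. Among all 122 such genes the median share of single-place reads was 64.7%, beside 12.3% in the 32 skewed to the long size and 6.34% in the 734 skewed to neither. Reads of several places are averaged over genes, which draws those genes toward each other.

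The genes with the most short reads on 1 strand ranged from mostly single-place to wholly repeated sequence. Gm7162, a processed pseudogene (chr17:12819819-12820842, minus strand), had 1721 sense short reads and 94.5 sense long ones, and its neighbour Gm16574 had 867.7 antisense short reads and 30.8 antisense long ones. C130026I21Rik, a coding gene of chromosome 1, had 412.2 sense and 566.2 antisense short reads and 11 and 14 long ones (-2.71). Ppp2r5a, a regulatory subunit of protein phosphatase 2A, had 972.3 antisense short and 132.3 antisense long reads (-0.43), and Gm20826 of chromosome Y 555.3 and 52.9 (-0.87). Sense reads led in Bzw2, Gm43622 and Gm44873, with 606.2, 857 and 665.9 short and 59.0, 119.8 and 72.8 long reads (-0.88, -0.42 and -0.68). Single-place reads made up 79.8% in Gm7162, 65.5% in Gm16574 and 19.1% in C130026I21Rik, and between 0% and 6.13% in the other 5.

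Genes known as siRNA sources in mouse oocytes, a list drawn up with earlier results of these data known, had ratios on the short side in all 7 measured cases. Of 8 listed, 7 had at least 20 reads, 1 was skewed to 20-23 nt and none to 25-30 nt, beside 13.7% and 3.6% of all 888 genes, so that the count is near the background. Their median was -1.75 beside -0.12 over all 888 genes, so the median gene also lay on the short side. Single-place reads made up 76.8% to 100% in Optn, Kif4, Pdzd11, Ppp4r1 and Dynll1, but 27.65% in Rangap1 and 26.98% in Hdac1. In the 734 genes skewed to neither size their median share was 6.34%. The listed genes thus differ from most genes in repeated sequence as well, and the 2 were not separated. Rangap1, the activator of the nuclear transport GTPase Ran, had 152.2 short and 3.35 long reads (-2.76), with 137.3 of the short ones antisense. The neighbours Kif4, a kinesin gene, and Pdzd11 overlap at their starts and share these reads, 314 and 313 short and 13 and 13 long (-1.99 and -1.98). Optn had 420 and 28 (-1.33), the phosphatase subunit gene Ppp4r1 269.5 and 15.5 (-1.52), Dynll1 of the dynein motor 82.2 and 3.69 (-1.75), and the histone deacetylase gene Hdac1 21.3 and 0.938 (-1.37). In Optn A stood at base 10 in 20.2% of short and 25% of long reads, and in Kif4 in 19.4% and 30.8%. The long values rest on 28 and 13 reads.

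The other lists held few genes with enough reads. Of 16 tubulin, kinesin and dynein genes 5 were measured and 1 was skewed to the short size (Kif2c, 195.6 short and 5.17 long reads, -2.56), beside 13.7% of all genes, with a median of -1.86. Kif4 and Dynll1 of these 5 are also in the list of siRNA sources. Tuba1b and Tuba1c, alpha tubulin genes that share reads, lay at -1.62 and -1.86. Of 30 oocyte and maternal-effect genes only Oog4 (326.6 and 13, -2.05) and Nlrp5 (26.2 and 0.003, -3.18), which is needed by the early embryo, reached 20 reads, and both were skewed to the short size. Dicer1, the gene of Dicer itself, was the only one of 23 small RNA pathway genes with enough reads (19.7 and 1.98, -0.47). Of 96 ribosomal protein genes only Rps23 was measured (43.0 and 1.21, -2.12). None of 14 histone genes and none of 37 mitochondrial transcripts had 20 reads of this kind.

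Among hairpins, 108 had at least 20 reads. Over all microRNA reads there were 28.8 short reads for each long one, and relative to this 12 hairpins (11.1%) were skewed to 25-30 nt and 23 (21.3%) to 20-23 nt. The 5 with most short reads were Mir20a (1900 short, 75 long), Mir22 (1346, 0), Mirlet7g (1104, 11), Mir16-2 (1032, 19) and Mir16-1 (1030, 19), and the last pair shares its mature sequence and nearly all reads. miR-20a belongs to the miR-17-92 cluster, let-7g to a family abundant in differentiated cells, and miR-16 to a family that restrains the cell cycle. Mir22 had 0 long reads in 1346 reads of both sizes, which allows a share of up to 0.223%.

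The long microRNA reads differed between hairpins in how they ended. In Mir182, 71 of 211 reads were long (33.6%, 27.6 to 40.3), its commonest length was 25 nt, and 91.5% of the long reads matched the hairpin to the end. Its RefSeq mature sequence, printed above, is itself 25 nt long. Mir320, a hairpin that does not need Drosha, had 39 long and 91 short reads (30.0%, 22.8 to 38.4), and 61.5% of the long reads matched to the end. Outside the rule for named hairpins, and chosen after their values were seen, Mir103-1, Mir103-2 and Mir107, which share reads, had 53.2%, 53.2% and 54.3% of long reads matched to the end, Mir541 63.2% of 19, Mir425 75% of 4 and Mir342 42.9% of 7. In Mir20a, Mirlet7g, Mir16-1, Mir16-2, Mir30e, Mir200c, Mir155 and Mir470 0% to 5.26% did. None of the 75 long reads of Mir20a matched to the end and 60.0% ended in added A alone, and for Mir30e (42 long, 385 short reads) the values were 2.38% and 69.0%. Mir200c (39 long, 240 short), an epithelial microRNA, had 0% and 71.9% of the 32 long reads that could be compared, Mir155 (24 and 154) 0% and 45.8%, and Mir470 (10 and 90), of the germline cluster on chromosome X, 0% and 60.0%. Mir290a, with 14 long and 6 short reads, the highest long share of the miR-290 cluster, had 0% and 85.7%. Other hairpins outside that rule, also chosen after their values were seen, had long reads that did not match to the end. Mir30c-1 and Mir30c-2, which share reads, had 0% and 80.8%. Mir351 (26 long, 13 short) had 0% and only 3.85%, and Mir1983 (10 and 35) 0% and 10%, so most of their long reads ended in neither way.

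Families differed in how much they contributed to the long group. The 12 let-7 hairpins, which share some reads, had 5372 short and 39 long reads (0.721% long), 14 of the long reads being from Mirlet7b. Of the 12, 7 were skewed to 20-23 nt and none to 25-30 nt, beside 21.3% and 11.1% of all hairpins, with a median of -2.17 beside -0.63 over the 108 hairpins. The 7 are not separate observations. Mirlet7a-1 and Mirlet7a-2 (672.5 short and 0 long each) are called on shared reads, as are Mirlet7f-1 and Mirlet7f-2 (543 and 1 each). The miR-17-92 cluster and its paralogs had 2642 and 104 (3.79%), 75 of the 104 from Mir20a, with none of 7 skewed either way, with a median of -0.32. The miR-15/16 family had 2610 and 43 (1.62%), with only Mir322 (290 and 0) skewed of 5. The miR-290 cluster of the early embryo had 928 and 16 (1.69%), and 14 of the 16 came from Mir290a. The germline cluster of chromosome X had 650.7 and 13.8 (2.08%), with 10 of the 13.8 from Mir470 and 3 of 8 skewed to the short size, beside 21.3% of all hairpins. That 21.3% includes hairpins with too few reads to be called skewed to 20-23 nt, such as Mir126a (53 short, 0 long, -1.89). It is therefore lower than the share among hairpins that could be called, which limits the comparison for every family.

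Small RNAs do not measure the messenger RNAs of cell type markers, so the label of the sample could be checked only in part. Of 10 oocyte markers 3 (Gdf9, Nlrp5 and Zar1) had sense reads, 35.7 in all at 20-23 nt and 0.003 at 25-30 nt, and Zp1, Zp2, Zp3, Bmp15, Oosp1, Npm2 and Dppa3 had none. Of 8 granulosa cell markers 1 (Fst) had 0.013 reads and Amh, Inha, Inhba, Fshr, Cyp19a1, Foxl2 and Nr5a2 had none. Of 6 blood markers Ptprc alone had a share of a read, 0.002, and the 4 globin genes and Alas2 had none. MicroRNAs of stroma, granulosa and blood cells were present in 6 of 7 hairpins, Mir144 being at 0, with 211 reads of 20-23 nt and none of 25-30 nt. A wider list of the same kind, with 13 hairpins of which 11 had a read, held 864.3 short and 2 long reads, 626 and 1 of them from Mir21a. Their part in the 20-23 nt microRNA share was not tested.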

How the data were processed

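Small RNA of 19-30 nt was sequenced in 1 library of fully grown oocytes. The authors deposited reads with quality strings, and the sources used here name no trimming, aligner, build or filter of theirs. The deposited values are neither counts nor signal; every count here was made from the reads.

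The linker was trimmed (at least 6 bases, up to 20% mismatches), which left 311745 reads (33.0%) without a linker and 103093 (10.9%) with a linker alone. Inserts whose first 20 nt matched GENCODE M21 transcripts exactly, on either strand, at up to 1000 places, were classed and divided equally among those places, so a read of repeated sequence is spread over many genes. Inserts that hold a miscalled base in the first 20 nt were lost. Exon reads are those with no place in a small RNA gene. A skewed gene had at least 20 reads and a ratio at least 4 times above or below that of all exon reads, with 0.5 added to each size. A pair of tRNA-like loci and the rDNA copies of chromosome 17 were reassigned after the reads had been seen. Places in or next to a tRNA or rRNA gene of RefSeq were also put in that class.

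Named genes were the 5 hairpins, and the 5 other genes by sense and by antisense reads, with most reads at each size; the 5 hairpins of at least 50 reads with the highest long share; the 5 genes most skewed each way; and list members with at least 20 reads. The members and lists were chosen with earlier results of these data known. Scripts were tested on simulated data. Software was Python 3.11.15, numpy 2.4.6, pandas 2.3.3, scipy 1.17.1 and matplotlib 3.10.9. The other 2 libraries, of 26 nt reads, were not used here. Alternatives varied the placing, the linker, the size limits and the unit counted.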

Additional observations from a re-analysis of the deposited data

Results flagged for a closer look

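Inserts of 24 nt belong to neither size group and hold 6520 exon reads. Of these 61.6% began with U (60.4 to 62.8) and 28.1% had A at base 10 (27.04 to 29.22), values between those of 23 nt and 25 nt inserts.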

How the results depend on the processing

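All values rest on 1 library, and no paired analysis was possible because a single library has no replicate numbers to share. The higher shares of U at base 1 and of A at base 10 in the long group kept their direction under every alternative run. With each distinct sequence counted once, the microRNA difference (short minus long) was -0.078 points and that of coding antisense reads 1.31, U at base 1 differed by 17.7 and A at base 10 by 23.3 points, and 4 genes were skewed long and 76 short. With single-place reads the 5 differences were 24.6, 1.65, 6.30 (antisense share within coding exons), 13.0 and 20.5, with 14 and 60 genes. With the whole insert matched they were 18.1, -1.81, -4.77, 19.2 and 33.1, with 186 genes skewed short and 42.9% of long pairs (3 of 7, 15.8 to 74.9) overlapping by 10 nt. With groups of 21-22 and 26-29 nt, U differed by 17.9 and A by 30.4 points. With no linker mismatch these were 15.3 and 28.9, with 8 and 53 genes. Other alternatives were chosen after seeing the data. With 1 A read as C allowed the microRNA difference was 14.2. Without reassigned loci the antisense differences were -3.28 and -5.33 and A differed by 24.9. With size taken from the matched part, microRNA differed by 16.6, U by 18.9 and A by 33.4, with 244 genes skewed short and 40% of pairs (4 of 10, 16.8 to 68.7) at 10 nt. The causes were not tested. Genes skewed long have few reads, and single-place long pairs number 34, and fewer under the stricter settings, which limits both.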
